A study of Mus musculus with 28 samples.

Results

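The genes described here are 35 members of the unfolded protein response and the integrated stress response, read in cultured primary mouse microglia, the resident macrophages of the brain. They were picked by symbol from the deposited count tables, where each of the 35 was found. Of the 54427 genes listed with counts, 29066 had a count above 0 in some library. Messenger RNA was measured by 3′ tag sequencing (QuantSeq, forward kit), in which a transcript is read near its 3′ end, so that counts do not scale with transcript length. The cells came from APOE3S/S mice, labelled Christchurch after the APOE variant they carry in both copies, or from APOE3 mice, labelled WT. They were given tau or amyloid, or nothing, the last group having the treatment label Control. There were 6 APOE3S/S tau, 6 APOE3 tau, 3 APOE3S/S amyloid, 3 APOE3 amyloid, 4 APOE3S/S untreated and 6 APOE3 untreated libraries. The labels state no dose, time or form of the tau and amyloid, and no age or sex of the mice. The labels do not say whether libraries came from separate animals or cultures, so p-values measure the spread between these libraries, which may be technical.

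The unfolded protein response is started by misfolded proteins in the endoplasmic reticulum (ER) through the sensors IRE1 (gene Ern1), PERK (Eif2ak3) and ATF6. IRE1 splices the mRNA of the transcription factor XBP1, ATF6 is cut in the Golgi into a transcription factor, and both raise chaperones, disulfide isomerases and the machinery of ER-associated degradation (ERAD). PERK phosphorylates the translation factor eIF2α, as do the kinases GCN2, PKR and HRI, which sense amino acid shortage, double-stranded RNA and heme or mitochondrial stress. That shared branch, the integrated stress response, slows translation while favouring that of ATF4, whose targets make, import and load amino acids. Microglia are secretory and phagocytic cells, and stress of the ER and shifts in amino acid use have been described in them during activation. Counts of 3′ tags show neither the splicing of Xbp1 nor the cleavage of ATF6 nor the phosphorylation of eIF2α.

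Library totals ran from 14.5 to 27.2 M counts, and values below are counts per 1e6 counts of the library (CPM). All 35 members passed the filter on low counts in every comparison. Library titles follow a SAN series (17 libraries, all treatments) and a second series (11 libraries, tau and untreated). Comparisons pooled over both series carry a term for the title series, and those within 1 series, such as tau against amyloid, do not. What the series stand for is not given in the labels. On the first principal component of the SAN libraries, APOE3S/S untreated replicate 2 lay at 0.02, against −0.39 to −0.34 for the other untreated libraries, and APOE3S/S amyloid replicate 3 lay at 0.28, against −0.12 to 0.10 for the other amyloid libraries. In the second series APOE3S/S untreated replicate 4 lay at −0.77, against −0.24 to 0.28 for the rest. Most counts of members called that rest on these 3 libraries are given with and without them. Counts from a title series fitted alone, and calls of other pathway genes, are given only with them. For the difference between the title series they were left out singly. Of the microglia markers all 9 were detected, summing to 5503 to 8336 CPM, although Tmem119 reached only 5.83 CPM. Sums were 109 to 188 CPM for the oligodendrocyte markers, 25.7 to 70.3 CPM for the endothelial markers (Cldn5 at 0), 2.39 to 23.6 CPM for the granulocyte markers (S100a9 at 0), 0.239 to 62.8 CPM for the fibroblast markers, 0.570 to 3.85 CPM for the neuronal markers and 0 to 0.761 CPM for the B and plasma cell markers. The astrocyte markers summed to 31.0 to 113 CPM, most of it from Aldh1l1 (20.0 to 64.1 CPM) and Aldoc (6.11 to 36.6 CPM), with Gfap at 0.181 to 8.30 CPM.

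With tau, APOE3 microglia raised 9 of the 35 genes and lowered 2 (edgeR quasi-likelihood test on counts, adjusted p under 0.05 over 13905 genes). The rises were in the disulfide isomerase Pdia4, the chaperone Hyou1, the transcription factor Xbp1, the feedback regulators Sesn2 and Trib3, and the amino acid genes Slc7a5, Slc3a2, Phgdh and Asns. The falls were in the serine synthesis enzyme Psat1 and the ERAD lectin Edem1. Over all genes tested, 14.8% were called, 8.98% as higher and 5.87% as lower, against 31.4% of the members. The members' median log2 fold change was 0.17 and that of all genes −0.02, and 29 of 35 members lay above 0. In APOE3S/S cells tau raised 1 member, Pdia4, where 3.28% of all genes were called (2.14% higher, 1.14% lower), and the median log2 fold change was 0.14 with 28 of 35 above 0. The test of the difference between the genotypes' tau responses called no member, as given below. The count in APOE3 cells ran from 4 to 11 when a library was left out in turn. It was 6, 4 and 7 without untreated replicate 1, 2 or 3, and 7, 7, 7 and 5 without tau replicate 3, 4, 5 or 6. Pdia4, Sesn2 and Psat1 were called each time. Of the microglia markers 6 of 9 were also called as higher and 1 as lower with tau in APOE3 cells, summing to 6337 to 6726 CPM with tau against 5503 to 5669 CPM untreated in the SAN series and to 5812 to 6809 CPM against 5983 to 6402 CPM in the second. Of the endothelial markers 2 of 3 tested were higher and 1 lower, with sums of 25.7 to 34.0 CPM with tau against 32.7 to 70.3 CPM untreated in the SAN series and 29.6 to 43.7 CPM against 45.1 to 53.1 CPM in the second. Of the granulocyte markers 1 of 2 tested was higher, with sums of 15.7 to 23.6 CPM against 6.58 to 14.0 CPM in the SAN series and 3.74 to 4.12 CPM against 2.90 to 3.68 CPM in the second. The endothelial sums were mostly Flt1 (24.7 to 69.4 CPM over all libraries) and the granulocyte sums mostly S100a8 (2.30 to 21.5 CPM). The part of these markers in the members' values was not tested.

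**Figure D1:**
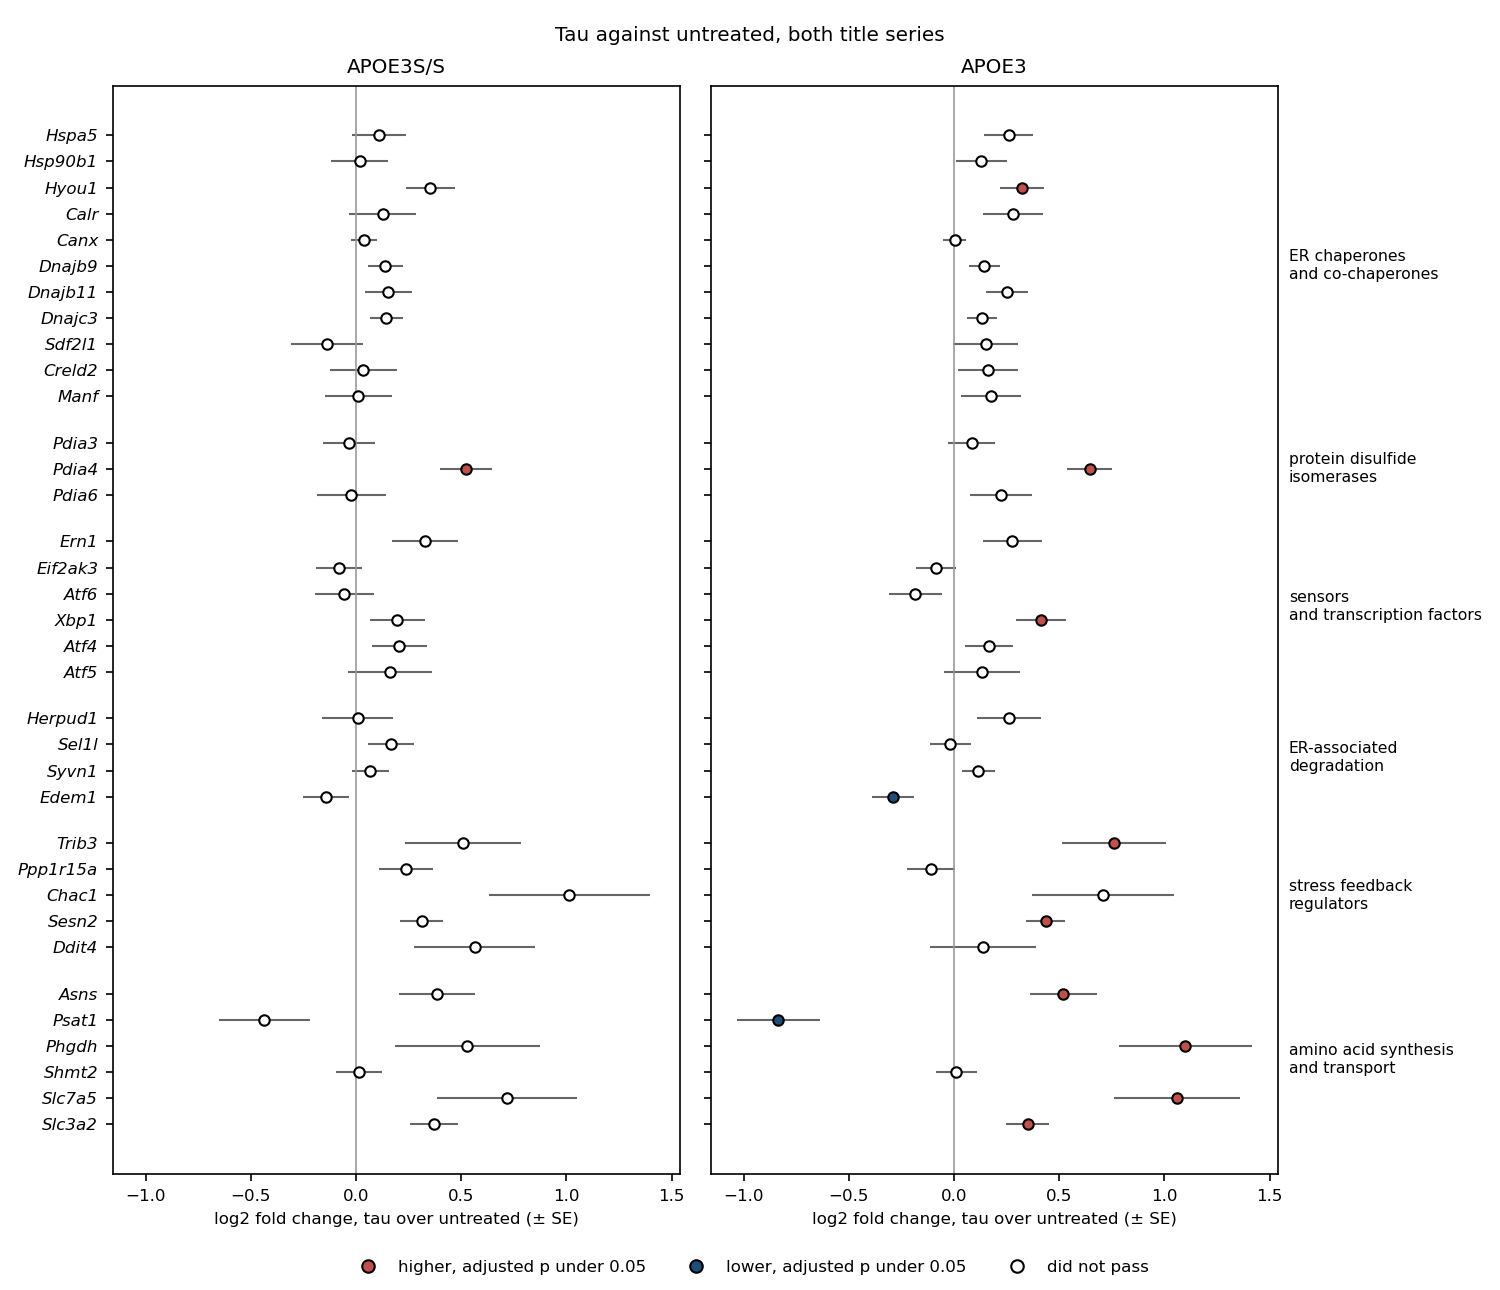
Log2 fold change of each of the 35 genes, tau over untreated, in APOE3S/S (left) and APOE3 (right) microglia, with genes grouped by role down the page. Points are estimates from the fit of both title series, bars are ± 1 standard error, and filled points passed at an adjusted p under 0.05, which 1 gene did in APOE3S/S cells and 11 did in APOE3 cells.

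Of the ER chaperones and co-chaperones, 1 of 11 rose with tau in APOE3 cells and none fell (9.09%, against 14.8% of all genes). The median log2 fold change was 0.16, with all 11 above 0. Hyou1 (chr9:44379490-44392369, GRCm38 as all coordinates here), an Hsp110-like nucleotide exchange factor for BiP, stood at 133, 151 and 151 CPM with tau against 99.1, 97.2 and 108 CPM untreated in the SAN series. In the second series it stood at 108, 110.1 and 121 CPM with tau against 116, 106 and 107 CPM untreated. The groups did not overlap in the SAN series and did in the second, and the pooled log2 fold change was 0.32 ± 0.11 (SE, adjusted p = 0.0420). Here and below, tau and untreated groups of APOE3 cells did not overlap for 38.4% of all genes in the SAN series and 20.9% in the second. In APOE3S/S cells these shares were 32.9% and 36.5%. Hspa5 (chr2:34771970-34777547), the gene of BiP, the central ER chaperone and the usual readout of the response, stood at 592, 642 and 645 CPM with tau against 586, 486 and 383 CPM untreated in APOE3 cells of the SAN series, and at 543, 503.5 and 533 CPM with tau against 444, 506 and 553 CPM untreated in the second. The SAN groups were apart and those of the second series overlapped. The pooled log2 fold change of 0.26 ± 0.12 did not pass (adjusted p = 0.144), nor did that of either series alone, 0.45 ± 0.17 in the SAN series (adjusted p = 0.0809) and 0.08 ± 0.10 in the second. APOE3S/S cells gave Hspa5 levels of 578, 571 and 687 CPM with tau against 457 and 523 CPM untreated in the SAN series, and 542, 540.5 and 600.4 CPM with tau against 586 and 608 CPM untreated in the second. There too the SAN groups were apart and the others overlapped, and the pooled difference of 0.11 ± 0.13 did not pass (adjusted p = 0.695). The other 9, which are the Hsp90 of the ER (Hsp90b1), the lectin chaperones Calr and Canx, the J-domain proteins Dnajb9, Dnajb11 and Dnajc3, and Sdf2l1, Creld2 and Manf, had log2 fold changes of 0.003 (Canx) to 0.28 (Calr) in APOE3 cells. None of the 11 passed in APOE3S/S cells, with a median of 0.11, and Hyou1 stood at 0.35 ± 0.12 (adjusted p = 0.0975).

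Among the protein disulfide isomerases, which form and rearrange disulfide bonds in the ER, Pdia4 rose and Pdia3 and Pdia6 did not pass. Pdia4 (chr6:47796141-47813430) stood at 127, 150.4 and 151 CPM with tau in APOE3 cells of the SAN series, against 84.2, 80.5 and 77.8 CPM untreated. The second series had 207, 209 and 203 CPM with tau against 148, 156 and 164 CPM untreated. Every tau library was above every untreated library of its own series, although the untreated level of the second series was about that of tau in the SAN series. The log2 fold change was 0.64 ± 0.11 (adjusted p = 0.000445), with 0.91 ± 0.14 in the SAN series alone and 0.41 ± 0.08 in the second series alone, where Pdia4 was the single member called (adjusted p = 0.0191). APOE3S/S cells gave 140.2, 127 and 171 CPM with tau against 81.3 and 88.4 CPM untreated in the SAN series, and 209.6, 199 and 199.9 CPM with tau against 173 and 166 CPM untreated in the second. The groups again did not overlap within either series, and the log2 fold change was 0.52 ± 0.12 (adjusted p = 0.0247). It was 0.49 ± 0.14 without untreated replicate 2 (adjusted p = 0.0388), 0.58 ± 0.13 without untreated replicate 4 (adjusted p = 0.0272) and 0.56 ± 0.16 without both (adjusted p = 0.0345). The call was lost without untreated replicate 1 (adjusted p = 0.112), tau replicate 4 (adjusted p = 0.0589) or tau replicate 6 (adjusted p = 0.0640). Pdia3 and Pdia6 stood at 0.08 ± 0.11 and 0.22 ± 0.15 in APOE3 cells, and at −0.04 ± 0.12 and −0.02 ± 0.16 in APOE3S/S cells.

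Of the sensors and transcription factors, Xbp1 was the 1 of 6 that rose with tau in APOE3 cells (16.7%, against 14.8% of all genes). The mRNAs of the sensors themselves did not pass. Xbp1 (chr11:5520659-5525893) stood at 195.3, 228 and 221 CPM with tau against 159, 161 and 106 CPM untreated in the SAN series, and at 150.0, 145 and 132 CPM with tau against 119, 132 and 136 CPM untreated in the second. The SAN groups were apart and those of the second series overlapped, and the log2 fold change was 0.42 ± 0.12 (adjusted p = 0.0194). Xbp1 in APOE3S/S cells was at 193, 189 and 219 CPM with tau against 146 and 162 CPM untreated in the SAN series, and at 168, 164 and 159.5 CPM with tau against 155 and 165 CPM untreated in the second, giving 0.20 ± 0.13 (adjusted p = 0.435). Ern1 (chr11:106394650-106487852), the gene of IRE1, stood at 86.7, 90.8 and 76.4 CPM with tau against 43.4, 67.8 and 97.2 CPM untreated in APOE3 cells of the SAN series, and at 65.7, 67.3 and 65.7 CPM with tau against 68.9, 56.5 and 49.98 CPM untreated in the second (0.28 ± 0.14, adjusted p = 0.208). Eif2ak3 (chr6:70844515-70905245), the gene of PERK, stood at 33.6, 36.9 and 28.9 CPM with tau against 33.1, 44.3 and 36.7 CPM untreated in the SAN series, and at 30.1, 32.9 and 28.4 CPM with tau against 31.8, 32.1 and 30.8 CPM untreated in the second (−0.09 ± 0.10, adjusted p = 0.627). Atf6 (chr1:170704674-170867771) stood at 78.9, 79.2 and 66.4 CPM with tau against 71.3, 102 and 124 CPM untreated in the SAN series, and at 81.7, 94.0 and 79.0 CPM with tau against 95.3, 90.3 and 80.0 CPM untreated in the second (−0.18 ± 0.13, adjusted p = 0.378). For each of these sensors the tau and untreated groups overlapped within both series. Atf4 (chr15:80255184-80257541), which is controlled mainly by translation, stood at 199.5, 194.9 and 205 CPM with tau against 177, 137 and 203 CPM untreated in the SAN series, and at 225, 219 and 244 CPM with tau against 214, 214 and 241 CPM untreated in the second (0.17 ± 0.12, adjusted p = 0.382), also with overlap in both. Its relative Atf5 stood at 0.13 ± 0.18. The APOE3S/S log2 fold changes of Ern1, Eif2ak3, Atf6 and Atf4 were 0.33 ± 0.16, −0.08 ± 0.11, −0.06 ± 0.14 and 0.21 ± 0.13, and none of the 6 passed. Within the SAN series of APOE3S/S cells Atf4 stood at 202, 248 and 224 CPM with tau against 144 and 179.5 CPM untreated, and Atf6 at 85.1, 72.2 and 79.2 CPM with tau against 117 and 91.2 CPM untreated, with both pairs of groups apart. In the second series those of Ern1 were apart, at 63.0, 63.2 and 60.6 CPM with tau against 52.1 and 31.0 CPM untreated. In these APOE3S/S comparisons 32.9% of all genes did not overlap in the SAN series and 36.5% in the second.

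Response elements of both branches were looked for in the RefSeq promoter windows (GRCm38.p6, 250 bases before to 50 after each gene's start) of the 31 members that matched by symbol. Slc7a5, Atf6, Hyou1 and Manf had no match. The ER stress response element ERSE, bound by ATF6 with NF-Y, was searched on both strands as CCAAT, any 9 bases (N), then CCACG. It was found in 39 of 32851 promoters (0.119%) and in those of 8 members, Hspa5, Hsp90b1, Calr, Canx, Dnajc3, Creld2, Pdia6 and Syvn1. Without its last letter, a form chosen after the values were seen, it was in 0.365% of promoters and in those of 3 further members, Herpud1, Pdia3 and Pdia4. ERSE-II, searched as ATTGG, any base, then CCACG, was in 0.0365% of promoters and in those of Herpud1 and Dnajb11. The C/EBP-ATF response element CARE, to which ATF4 binds with C/EBP partners, was searched as TGATGNAAN and was in 3.95% of promoters and in those of Asns, Trib3, Chac1 and Herpud1. With tau in APOE3 cells, where 14.8% of all genes were called, 0 of the 8 members with a full ERSE, 0 of the 2 with ERSE-II and 2 of the 4 with CARE (Asns and Trib3) were called. Of the 11 members with the shorter ERSE form, 1 was called (Pdia4). In the SAN series alone the full ERSE genes Calr and Pdia6 were called (adjusted p = 0.0105 and 0.0287), where 19.0% of all genes were. The ERSE-II gene Dnajb11 and the CARE gene Asns were called there too, and Trib3 was not. With tau against amyloid in APOE3 cells, where 7.33% of all genes were called, the counts were 1 of 8 (Creld2), 1 of 2 (Dnajb11) and 1 of 4 (Asns). For the shorter ERSE form the count was 2 of 11 (Creld2 and Pdia4). No element is set apart from another by these counts. ERSE and its shorter form overlap wherever the full form is found. A match describes letters in the window and not binding. The stretches below show the element of the BiP gene as the classic case, that of the isomerase called in both genotypes, and those of the ATF4 targets called in APOE3 cells. Each is given 5′ to 3′ on the strand of the gene, and capitals mark the fixed letters of the match. Where the match runs on the other strand its letters read as the reverse complement, as in Pdia4 and Trib3.
Hspa5, ERSE, 250 bases before the start, chr2:34771840-34772089, plus strand: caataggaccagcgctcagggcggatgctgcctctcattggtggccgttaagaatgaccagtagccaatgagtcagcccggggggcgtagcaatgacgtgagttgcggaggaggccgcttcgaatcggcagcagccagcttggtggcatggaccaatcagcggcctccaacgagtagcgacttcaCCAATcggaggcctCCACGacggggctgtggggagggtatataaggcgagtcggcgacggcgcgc
Pdia4, ERSE without its last letter, 250 bases before the start, chr6:47813513-47813762, minus strand: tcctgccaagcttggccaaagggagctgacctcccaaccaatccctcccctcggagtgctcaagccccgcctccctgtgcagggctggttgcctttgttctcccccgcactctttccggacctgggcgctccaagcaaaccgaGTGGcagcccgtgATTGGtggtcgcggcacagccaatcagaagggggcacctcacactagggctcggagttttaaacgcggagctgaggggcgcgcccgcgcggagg
Asns, CARE, 250 bases before the start, chr6:7693210-7693459, minus strand: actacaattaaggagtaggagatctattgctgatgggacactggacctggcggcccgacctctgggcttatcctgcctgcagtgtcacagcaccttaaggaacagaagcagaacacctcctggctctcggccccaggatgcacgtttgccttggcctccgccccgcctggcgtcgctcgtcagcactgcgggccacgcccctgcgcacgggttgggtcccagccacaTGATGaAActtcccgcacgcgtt
Trib3, CARE, 30 bases from position 4 after the start, chr2:152344028-152344057, minus strand: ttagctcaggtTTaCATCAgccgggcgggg
Counted from the RefSeq start, the Hspa5 match lies 65 to 47 bases before it, that of Pdia4 107 to 90 bases before it and that of Asns 23 to 15 bases before it, while the Trib3 match lies after it, at bases 14 to 22. The coordinates printed with each gene are from the GENCODE annotation, whose starts differ from those of RefSeq. By the GENCODE coordinates the Hspa5 and Asns matches lie within the gene, and those of Pdia4 and Trib3 before it.

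**Figure D2:**
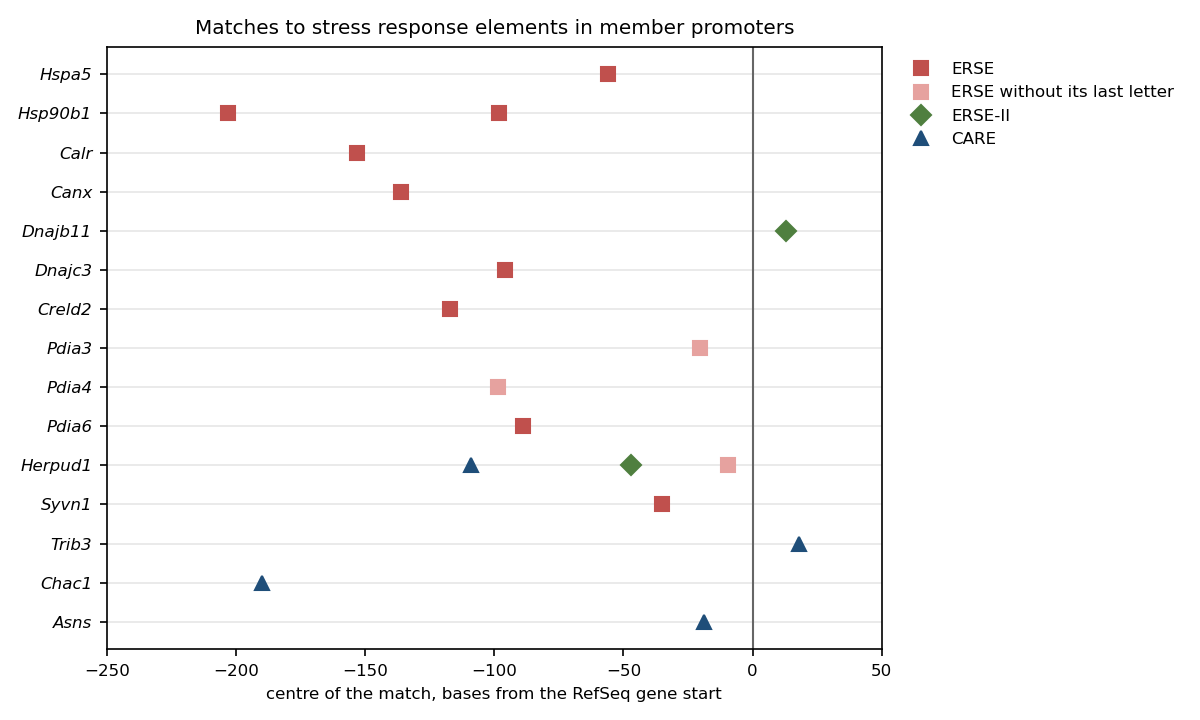
Centres of the matches to each element in the promoter windows of members, as distance in bases from the RefSeq start of the gene (vertical line). Squares mark ERSE (pale where only the form without its last letter matched), diamonds ERSE-II and triangles CARE. The Hspa5 match lies 65 to 47 bases before the start, and that of Trib3 after it.

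Of the 4 genes of ER-associated degradation, which retrieves misfolded proteins for the proteasome, none rose with tau in APOE3 cells and Edem1 fell. That was 25.0% called, against 14.8% of all genes. Edem1 (chr6:108828641-108859356), a lectin-like protein that hands glycoproteins to the degradation machinery and a textbook target of XBP1, stood at 248, 248.7 and 226 CPM with tau against 315, 344 and 406 CPM untreated in the SAN series. The second series had 313, 354 and 334 CPM with tau against 377, 369 and 334 CPM untreated. The log2 fold change was −0.29 ± 0.10 (adjusted p = 0.0488), with the SAN groups apart and those of the second series overlapping. It was −0.14 ± 0.11 in APOE3S/S cells (adjusted p = 0.498). Herpud1, Sel1l and Syvn1, a membrane adaptor, the scaffold and the ubiquitin ligase of the main complex, stood at 0.26 ± 0.15, −0.02 ± 0.10 and 0.12 ± 0.08 in APOE3 cells, and none passed in either genotype. The log2 fold changes of the 4 genes in APOE3 cells ran from −0.29 to 0.26, and their relation to XBP1 activity was not tested.

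Of the 5 stress feedback regulators, 2 rose with tau in APOE3 cells. Sesn2 (chr4:132492032-132510501), a leucine-sensing inhibitor of mTORC1 that is also an ATF4 target, stood at 60.9, 63.0 and 50.2 CPM with tau against 35.8, 40.4 and 41.0 CPM untreated in the SAN series, and at 42.4, 33.6 and 42.4 CPM with tau against 38.5, 32.4 and 30.7 CPM untreated in the second. The groups were apart in the SAN series and overlapped in the second, and the log2 fold change was 0.43 ± 0.09 (adjusted p = 0.0026). Trib3 (chr2:152337422-152344032), a pseudokinase that holds ATF4 activity back, stood at 14.8, 14.5 and 15.9 CPM with tau against 4.95, 4.75 and 15.5 CPM untreated in the SAN series, and at 13.4, 13.2 and 18.0 CPM with tau against 8.91, 10.1 and 10.4 CPM untreated in the second. Untreated replicate 3 of the SAN series was as high as the tau libraries, whereas the groups of the second series were apart, and the log2 fold change was 0.76 ± 0.25 (adjusted p = 0.0390). Chac1, which degrades glutathione and is induced by ATF4 with CHOP, was near the lower limit of the counts at 0.340 to 2.42 CPM over all libraries and stood at 0.71 ± 0.34 (adjusted p = 0.176). Ppp1r15a, whose product GADD34 brings a phosphatase to eIF2α, stood at −0.11 ± 0.11, and Ddit4, an inhibitor of mTORC1, at 0.14 ± 0.25. None of the 5 passed in APOE3S/S cells and all 5 were above 0, with Sesn2 at 0.31 ± 0.10 (adjusted p = 0.0962) and Trib3 at 0.51 ± 0.28 (adjusted p = 0.323).

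Amino acid synthesis and transport held the most calls of the 6 roles, with 4 of 6 genes higher and 1 lower with tau in APOE3 cells. That was 83.3% called, against 14.8% of all genes. Slc7a5 (chr8:121881150-121907694) and Slc3a2 (chr19:8706882-8723369) encode the light and heavy chain of the LAT1 transporter for large neutral amino acids. Slc7a5 stood at 15.4, 18.0 and 15.4 CPM with tau against 2.16, 3.39 and 7.84 CPM untreated in the SAN series, and at 12.0, 12.4 and 12.9 CPM with tau against 12.5, 8.11 and 10.6 CPM untreated in the second, a log2 fold change of 1.06 ± 0.30 (adjusted p = 0.0188). Slc3a2 stood at 355, 351 and 384 CPM with tau against 302, 252 and 358 CPM untreated in the SAN series, and at 396, 368 and 471 CPM with tau against 351, 311 and 302 CPM untreated in the second, a log2 fold change of 0.35 ± 0.10 (adjusted p = 0.0225). Slc7a5 groups were apart in the SAN series and Slc3a2 groups in the second series. Asns (chr6:7675169-7693254), the asparagine synthetase and a classic ATF4 target, stood at 33.6, 30.6 and 31.2 CPM with tau against 15.2, 15.6 and 26.6 CPM untreated in the SAN series, and at 43.9, 40.1 and 50.2 CPM with tau against 40.5, 37.5 and 33.7 CPM untreated in the second. Its log2 fold change was 0.52 ± 0.16 (adjusted p = 0.0293).

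Phgdh and Psat1 encode the first and the next enzyme of serine synthesis, and with tau Phgdh rose while Psat1 fell. Phgdh (chr3:98313170-98339990) stood at 143, 149.9 and 162 CPM with tau against 36.2, 42.1 and 30.5 CPM untreated in the SAN series. In the second series it stood at 41.3, 28.5 and 42.5 CPM with tau against 35.4, 37.2 and 40.3 CPM untreated. The tau libraries were thus far above the untreated ones in the SAN series and among them in the second, and the pooled log2 fold change was 1.10 ± 0.32 (adjusted p = 0.0197). Psat1 (chr19:15904678-15947337) stood at 23.7, 24.3 and 24.1 CPM with tau against 72.7, 57.1 and 79.4 CPM untreated in the SAN series, and at 68.1, 85.3 and 79.3 CPM with tau against 86.8, 88.2 and 92.6 CPM untreated in the second. Its tau libraries were below the untreated ones in both series, and the log2 fold change was −0.84 ± 0.20 (adjusted p = 0.0058). Psph, the last enzyme of the same route, was looked up after these values were seen and stood at 6.84 to 10.1 CPM with tau and 7.38 to 9.30 CPM untreated (−0.01 ± 0.13, adjusted p = 0.969). Shmt2, which moves a carbon of serine into the mitochondrial folate pool, stood at 0.01 ± 0.10. Phgdh in APOE3S/S cells stood at 0.53 ± 0.34 (adjusted p = 0.418), Psat1 at −0.44 ± 0.22 (adjusted p = 0.273), Slc7a5 at 0.72 ± 0.33, Asns at 0.39 ± 0.18 and Slc3a2 at 0.37 ± 0.12, and none of the 6 passed. Of the APOE3S/S untreated libraries of the SAN series, replicate 2 had 78.8 CPM of Phgdh and 26.6 CPM of Psat1, against 28.1 CPM of Phgdh and 68.2 CPM of Psat1 in replicate 1. Astrocytes are known to express serine synthesis genes strongly. Within each series the summed astrocyte markers were higher with tau, at 72.4 to 87.0 CPM against 45.2 to 61.4 CPM untreated in APOE3 cells of the SAN series and at 41.9 to 51.2 CPM against 31.0 to 38.3 CPM in the second, with 1 of 7 markers called as higher. For APOE3S/S cells the sums were 92.4 to 99.1 CPM with tau against 73.2 to 89.5 CPM untreated in the SAN series and 49.7 to 50.3 CPM against 39.0 to 49.4 CPM in the second. Their part in these values was not tested, and in bulk samples more cells of a type and more RNA per cell cannot be told apart.

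**Figure D3:**
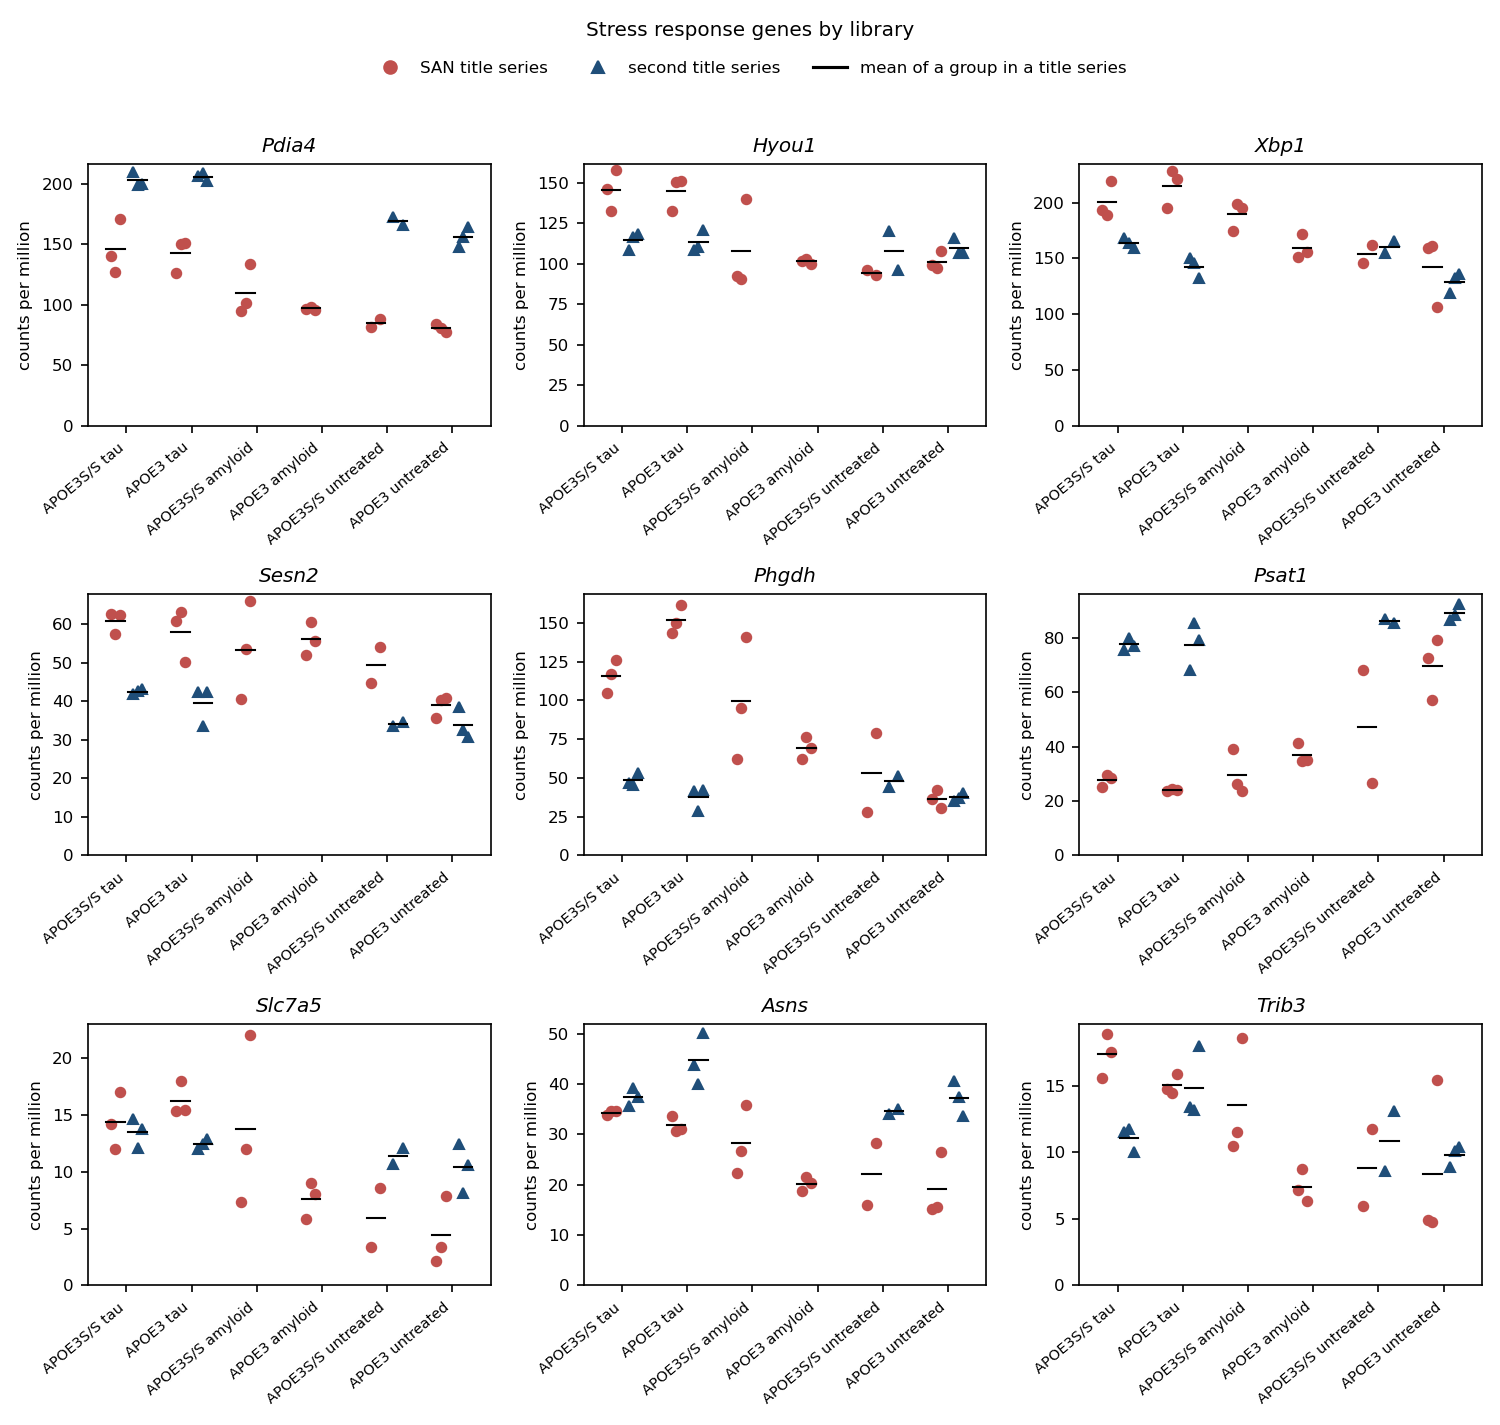
CPM of 9 members in each library, by group along the x axis, with circles for the SAN title series, triangles for the second title series and black bars for the mean of a group within a series. Phgdh lies at 143 to 162 CPM in APOE3 tau libraries of the SAN series and at 28.5 to 42.5 CPM in those of the second series, and untreated Pdia4 is higher in the second series than in the SAN series.

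The tau response of several members differed between the title series. In APOE3 cells 5 of 35 members passed the test of that difference (SAN minus second), against 5.62% of all genes (2.93% with a higher, 2.69% with a lower response in the SAN series). The difference in log2 fold change was 2.12 ± 0.36 for Phgdh (adjusted p = 0.00197), −1.27 ± 0.27 for Psat1 (adjusted p = 0.0092), 0.75 ± 0.19 for Calr (adjusted p = 0.0227), 0.53 ± 0.13 for Hyou1 (adjusted p = 0.0229) and 1.69 ± 0.44 for Slc7a5 (adjusted p = 0.0302). Each response was of larger size in the SAN series. Calr, the gene of the calcium-binding lectin chaperone calreticulin, stood at 774, 928 and 904 CPM with tau against 675, 584 and 472 CPM untreated in the SAN series and at 567.9, 527 and 550.5 CPM with tau against 590, 558 and 626 CPM untreated in the second. Fitted alone, the SAN series called 12 members (10 higher, 2 lower), where 19.0% of all genes were called, 11.7% as higher and 7.27% as lower. The second series called 1, Pdia4, where 2.55% of all genes were called, 1.91% as higher. Calr, Dnajb11 and Pdia6 were among the 12. Of the 11 genes called in the pooled fit, Trib3 and Slc3a2 were not called in the SAN series alone (0.95 ± 0.38 and 0.35 ± 0.13), and in the second series they stood at 0.61 ± 0.18 and 0.37 ± 0.12. When all tau libraries were set against all untreated libraries of APOE3 cells within a series, 14 members were wholly higher and 3 wholly lower in the SAN series, where 38.4% of all genes did not overlap. In the second series 4 were wholly higher and 2 wholly lower, where 20.9% of all genes did not overlap. The count of members with a series difference ran from 2 to 6 when a library was left out in turn. It was 3 without untreated replicate 2 or 6, and 2 without tau replicate 2, 5 or 6.

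APOE3S/S cells showed a series difference in the tau response for 1 member, Hyou1, at 0.64 ± 0.15 (adjusted p = 0.0416), where 0.949% of all genes were called. Hyou1 stood at 146, 133 and 158 CPM with tau against 96.1 and 93.1 CPM untreated in the SAN series, and at 108, 117 and 119 CPM with tau against 120.1 and 96.3 CPM untreated in the second. The median difference over the 35 members was 0.52, that over all genes −0.01, and 19 members had an unadjusted p under 0.05 (54.3%, against 17.4% of all genes). The count of members called was unstable. It was 8 without untreated replicate 2, 10 without untreated replicate 3, 0 without untreated replicate 1 or 4, and 0 without tau replicate 1, 2, 3, 4 or 6. Within the SAN series 20 members were wholly higher and 1 wholly lower with tau, where 32.9% of all genes did not overlap. In the second series 7 were wholly higher and 8 wholly lower, where 36.5% did not overlap, and the 8 lower ones were Hsp90b1, Calr, Creld2, Manf, Sdf2l1, Pdia3, Pdia6 and Psat1. The test called 3 members as higher in the SAN series alone, where 4.63% of all genes were called (2.52% higher, 2.11% lower), and 0 in the second series alone, where 2.26% were (1.65% higher). In the pooled fit of tau against untreated cells, leaving out both untreated libraries that stood apart gave 4 members called, 3 higher and 1 lower. That left untreated replicates 1 and 3, which are from different series.

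**Figure D4:**
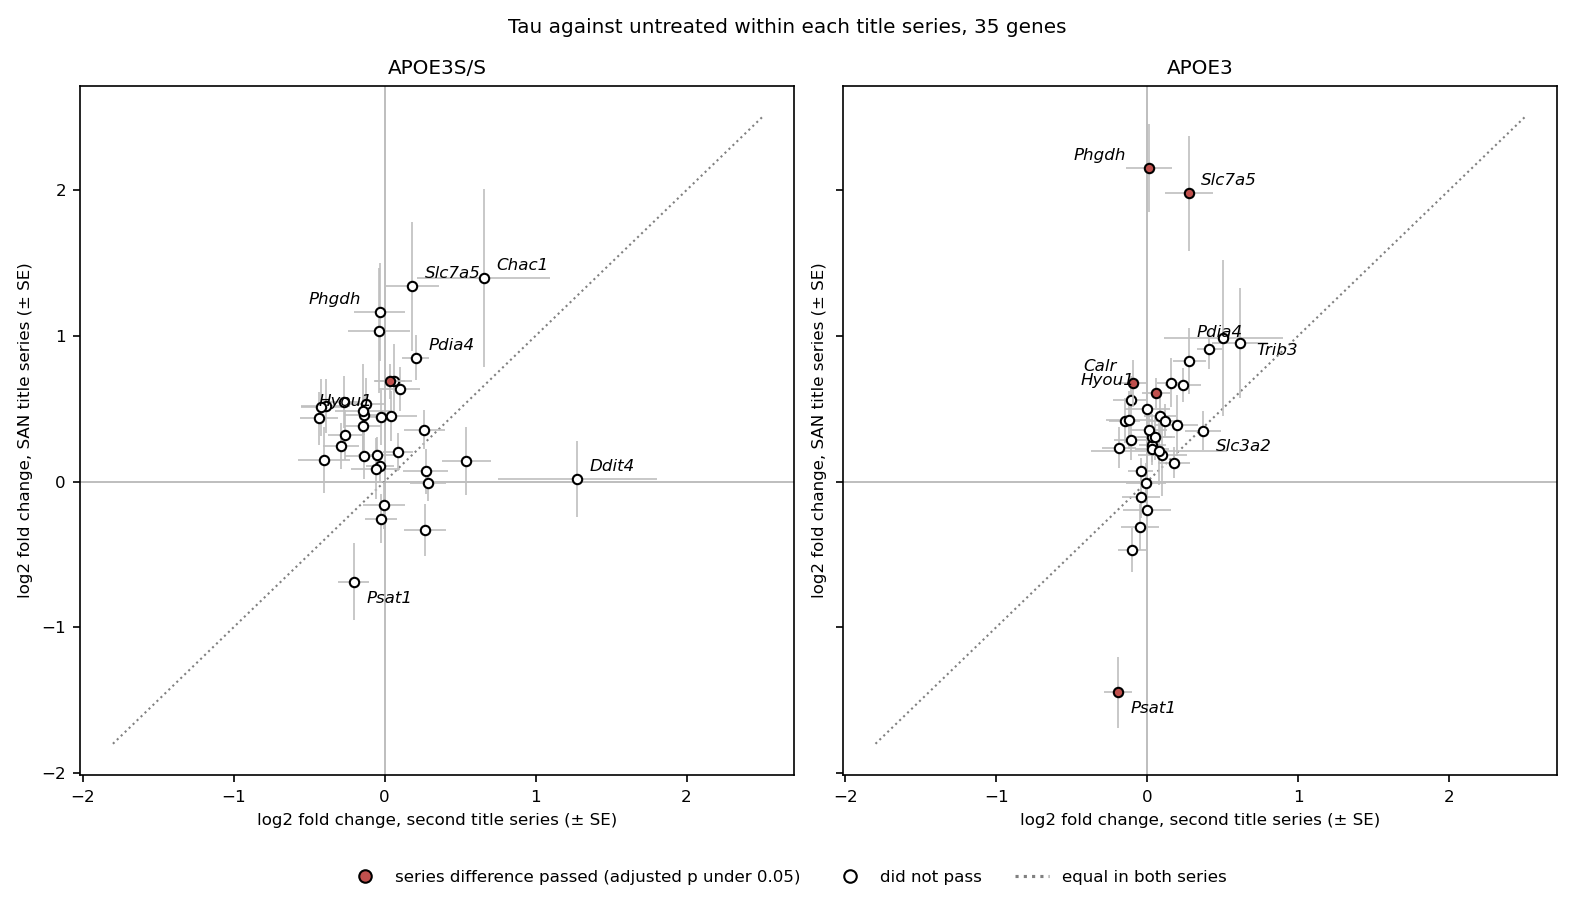
Log2 fold change of the 35 genes with tau over untreated, in the SAN title series (y axis) and the second title series (x axis), for APOE3S/S (left) and APOE3 (right) microglia, with bars of ± 1 standard error. Filled points passed the test of a difference between the series, which were 1 gene in APOE3S/S cells and 5 in APOE3 cells, and the dotted line marks equal responses.

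The genotypes were set against each other under each condition and no member passed. With tau, APOE3S/S against APOE3 gave log2 fold changes of −0.13 (Ern1) to 0.16 over the 35 members, with a median of 0.006, and 0.0144% of all genes were called. Untreated, the range was −0.39 to 0.46 with a median of 0.07, and 0.00719% of all genes were called. The smallest adjusted p there was that of Sesn2 (0.20 ± 0.10, adjusted p = 0.649). The difference between the tau responses, APOE3S/S minus APOE3, ran from −0.57 (Phgdh, ± 0.45) to 0.43, with a median of −0.05, and 0.0% of all genes were called. It was 0.35 ± 0.17 for Ppp1r15a and 0.40 ± 0.29 for Psat1. In these 3 tests 0 members had an unadjusted p under 0.05, and DESeq2 and limma-voom called 0. Of all genes 2.16% (tau), 7.75% (untreated) and 2.04% (difference between the responses) had such a p. Leaving out APOE3S/S untreated replicates 2 and 4 left each count at 0. With standard errors of the difference in response between 0.08 (Canx) and 0.51 (Chac1), differences as large as many of the tau responses may have gone uncalled, and the responses are not shown to be alike.

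Amyloid, compared in the SAN series alone, changed no member past the threshold in either genotype, and 0.0% of all genes were called in each of these comparisons. In APOE3S/S cells the members' median log2 fold change against untreated cells was 0.21 with 28 of 35 above 0, and in APOE3 cells 0.07 with 21 of 35 above 0. Unadjusted p under 0.05 was reached by 4 members in APOE3S/S cells (Pdia4, Dnajb11, Phgdh and Slc7a5) and by 4 in APOE3 cells (Psat1, Sesn2, Ppp1r15a and Phgdh), while DESeq2 and limma-voom called 0 in each. That was 11.4% of the members each time, against 8.52% of all genes in APOE3S/S cells and 13.1% in APOE3 cells. With no filter on low counts the test called 3 members in APOE3S/S cells and 4 in APOE3 cells, and with only the compared groups in the fit it called 0 in APOE3S/S cells and 3 in APOE3 cells. Phgdh stood at 62.2, 94.8 and 141 CPM with amyloid against 28.1 and 78.8 CPM untreated in APOE3S/S cells (0.92 ± 0.40, adjusted p = 0.582), and at 62.2, 76.1 and 69.2 CPM against 36.2, 42.1 and 30.5 CPM in APOE3 cells (0.92 ± 0.36, adjusted p = 0.308). Psat1 stood at 39.0, 26.4 and 23.8 CPM with amyloid against 68.2 and 26.6 CPM untreated in APOE3S/S cells (−0.60 ± 0.31), and at 41.3, 34.8 and 35.1 CPM against 72.7, 57.1 and 79.4 CPM in APOE3 cells (−0.92 ± 0.28, adjusted p = 0.231). In APOE3 cells the groups of both genes did not overlap, and 5 members in all were wholly higher and 3 wholly lower with amyloid, where 24.3% of all genes did not overlap. APOE3S/S cells had 10 wholly higher members, where 21.1% did not overlap. The levels of 7 markers of astrocytes summed to 74.9 to 102 CPM with amyloid against 73.2 to 89.5 CPM untreated in APOE3S/S cells, and to 72.2 to 113 CPM against 45.2 to 61.4 CPM in APOE3 cells, and their part was not tested.

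Setting APOE3S/S against APOE3 cells under amyloid, 0 of 35 members passed, with a median log2 fold change of 0.23 and 26 above 0. Atf4 stood at 184, 190.0 and 218 CPM in APOE3S/S cells against 153, 146 and 142 CPM in APOE3 cells (0.51 ± 0.15, adjusted p = 0.380). Atf4, Dnajb11, Trib3 and Asns had an unadjusted p under 0.05 (11.4% of the members, against 12.1% of all genes), and DESeq2 and limma-voom called 0. The groups did not overlap for 12 members that were higher and 6 that were lower in APOE3S/S cells, where 30.4% of all genes did not overlap. For the difference between the amyloid responses, 2 members, Atf4 and Ppp1r15a, had an unadjusted p under 0.05 (5.71%, against 3.71% of all genes) and no tool called any. When the replicate of APOE3S/S untreated cells and that of APOE3S/S amyloid cells that stood apart were left out, a step chosen after the data were seen, the amyloid comparison called 1 member in APOE3S/S cells and 3 in APOE3 cells, and the genotype comparison and the difference between responses called 0. Without APOE3S/S untreated replicate 2 alone, the APOE3S/S comparison called 2.

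Tau and amyloid were compared directly within the SAN series. In APOE3 cells 9 of 35 members were higher with tau than with amyloid and 0 lower, against 7.33% of all genes called and 4.13% called as higher and 3.21% as lower. The 9 were Pdia4, Hyou1, Creld2, Dnajb11, Xbp1, Atf4, Phgdh, Slc3a2 and Asns. Pdia4 stood at 127, 150.4 and 151 CPM with tau against 96.8, 98.0 and 96.0 CPM with amyloid, a log2 fold change of 0.65 ± 0.14 (adjusted p = 0.0147). Hyou1 stood at 133, 151 and 151 CPM against 102, 103 and 100.1 CPM (0.60 ± 0.14, adjusted p = 0.0191). The co-chaperones Dnajb11, at 124, 134 and 133 CPM against 109, 104 and 106 CPM (0.38 ± 0.10, adjusted p = 0.0372), and Creld2, at 30.2, 35.4 and 30.9 CPM against 24.8, 22.6 and 23.2 CPM (0.54 ± 0.14, adjusted p = 0.0356), also passed. Among the transcription factors, Xbp1 stood at 195.3, 228 and 221 CPM against 151, 172 and 155 CPM (0.52 ± 0.15, adjusted p = 0.0437) and Atf4 at 199.5, 194.9 and 205 CPM against 153, 146 and 142 CPM (0.53 ± 0.14, adjusted p = 0.0314). Atf4, which did not pass between tau and untreated cells, was at 177, 137 and 203 CPM in the untreated libraries of the same series. Phgdh stood at 143, 149.9 and 162 CPM with tau against 62.2, 76.1 and 69.2 CPM with amyloid (1.22 ± 0.31, adjusted p = 0.0279), Asns at 33.6, 30.6 and 31.2 CPM against 18.8, 21.5 and 20.4 CPM (0.74 ± 0.22, adjusted p = 0.0494), and Slc3a2 at 355, 351 and 384 CPM against 281, 266 and 254 CPM (0.53 ± 0.14, adjusted p = 0.0365). In each of these 9 genes every tau library was above every amyloid library, as they were in 20 members in all, while 5 were wholly lower and 43.0% of all genes did not overlap.

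The tau against amyloid calls in APOE3 cells rested on all 3 libraries of each group. The count was 2 without tau replicate 4 and 0 without tau replicate 5 or 6 or amyloid replicate 1, 2 or 3. In APOE3S/S cells 0 members passed, against 0.149% of all genes (0.0708% higher, 0.0778% lower), with Hyou1 (0.44 ± 0.13), Pdia4 (0.42 ± 0.14), Slc3a2 (0.41 ± 0.14) and Ppp1r15a (0.37 ± 0.14) at an unadjusted p under 0.05, and DESeq2 and limma-voom called 0. That unadjusted p was reached by 11.4% of the members and 9.4% of all genes. Hyou1 stood at 146, 133 and 158 CPM with tau against 92.6, 90.5 and 140 CPM with amyloid there, the last being the amyloid library that stood apart. Without that library 3 members were called. The difference between the genotypes in this comparison was not tested. Of the cell type markers in APOE3 cells, 1 of 7 for astrocytes and 1 of 2 tested for granulocytes were higher with tau than with amyloid, and 2 of 9 for microglia and 1 of 5 tested for oligodendrocytes were lower. Their sums with tau and with amyloid were 72.4 to 87.0 CPM against 72.2 to 113 CPM for astrocytes, 15.7 to 23.6 CPM against 9.72 to 13.2 CPM for granulocytes, 6337 to 6726 CPM against 6792 to 6985 CPM for microglia and 127.2 to 127.5 CPM against 133 to 143 CPM for oligodendrocytes. None of the markers passed in APOE3S/S cells, and the part of the markers in the members' values was not tested.

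**Figure D5:**
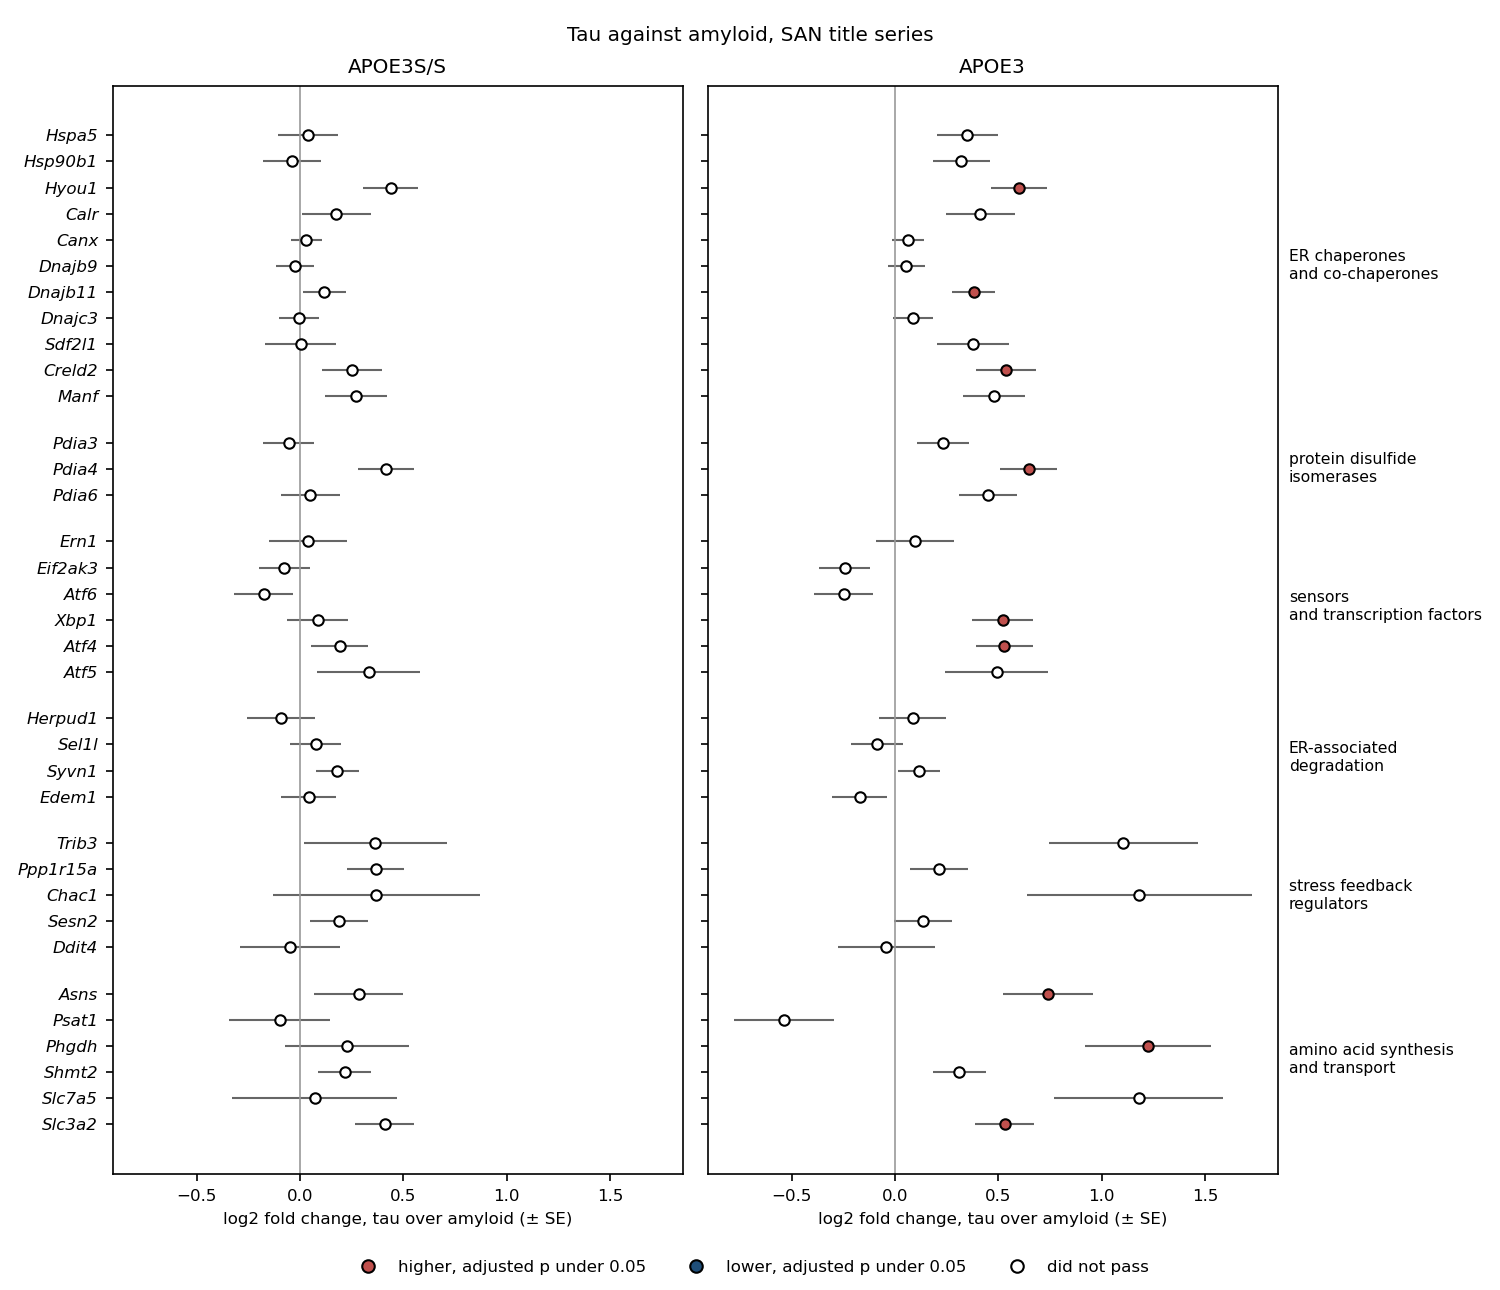
Log2 fold change of each of the 35 genes, tau over amyloid, in APOE3S/S (left) and APOE3 (right) microglia of the SAN title series, with bars of ± 1 standard error and genes grouped by role. Filled points passed at an adjusted p under 0.05, which were 0 genes in APOE3S/S cells and 9 in APOE3 cells, all higher with tau.

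Of 106 other genes of the same pathways, in 7 lists, 103 were tested with tau in APOE3 cells, and 14 were higher and 3 lower, 16.5% against 14.8% of all genes. Calls were most frequent among the other amino acid genes linked to ATF4, where 6 of 13 tested were higher and 0 lower. They were led by the glycine transporter Slc6a9 (2.47 ± 0.44, adjusted p = 0.000685), the cystine and glutamate exchanger Slc7a11 (1.66 ± 0.35, adjusted p = 0.00229) and the neutral amino acid transporter Slc38a2 (0.46 ± 0.10, adjusted p = 0.00236). Slc6a9 was near the lower limit of the counts. In the SAN series it ran from 6.9 to 10.3 CPM with tau against 0.284 to 0.988 CPM untreated (log2 fold change 3.97). In the second it ran from 2.25 to 3.90 CPM against 0.814 to 1.87 CPM (1.26). Slc7a11 ran from 200.2 to 282 CPM with tau against 31.9 to 71.7 CPM untreated in the SAN series and from 105 to 182 CPM against 46.3 to 101 CPM in the second, so that the groups were apart in both. Of the cytosolic aminoacyl-tRNA synthetases, which load amino acids onto tRNA, 4 of 12 were higher and 0 lower, led by Wars (0.42 ± 0.10, adjusted p = 0.0077), Mars (0.42 ± 0.11, adjusted p = 0.00842) and Aars (0.48 ± 0.13, adjusted p = 0.0123). Wars is also known as an interferon-inducible gene. Tau raised 3 of the 13 ATF4-linked genes tested in APOE3S/S cells (23.1%, against 3.28% of all genes), Slc38a2 (0.55 ± 0.11, adjusted p = 0.0125), Slc7a11 (2.00 ± 0.41, adjusted p = 0.0141) and Slc6a9 (1.93 ± 0.49, adjusted p = 0.0363), and 0 of 12 synthetases passed.

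The other stress transcription factors went both ways with tau in APOE3 cells, with 2 of 9 higher and 2 lower (44.4%, against 14.8% of all genes). Nupr1, a small chromatin protein induced by ATF4, rose by 1.12 ± 0.24 (adjusted p = 0.00258) and Cebpb by 0.48 ± 0.14 (adjusted p = 0.0246). Atf3, a repressor induced downstream of ATF4 in many cells, fell, at 98.0 to 106 CPM with tau against 290 to 358 CPM untreated in the SAN series and 276 to 302 CPM against 405 to 430.1 CPM in the second (−1.04 ± 0.16, adjusted p = 0.000235). It fell in APOE3S/S cells as well (−0.75 ± 0.17, adjusted p = 0.0222). Ddit3, the gene of the pro-apoptotic factor CHOP, stood at 0.04 ± 0.20 in APOE3S/S cells and 0.01 ± 0.17 in APOE3 cells, and passed in neither. Of the eIF2 kinases, eIF2 and eIF2B genes, 1 of 13 (7.69%) was higher, Eif2ak2, which encodes the RNA-activated and interferon-inducible kinase PKR (0.96 ± 0.18, adjusted p = 0.000953). Of the other ER folding genes Fkbp11 was higher (0.81 ± 0.26, adjusted p = 0.0384) and the oxidase gene Ero1lb lower (−0.29 ± 0.08, adjusted p = 0.0160) of 15 (13.3%). Both shares were below the 14.8% of all genes. None of 16 other ERAD genes and none of 25 tested translocon and early secretory genes passed with tau in either genotype.

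Against amyloid in APOE3 cells, tau gave 12 higher and 2 lower of 103 other pathway genes tested, 13.6% against 7.33% of all genes. These were 4 of 12 synthetases, led by Mars (0.59 ± 0.13, adjusted p = 0.0201), Aars (0.65 ± 0.17, adjusted p = 0.0339) and Cars (0.49 ± 0.13, adjusted p = 0.0365), 4 of 13 ATF4-linked amino acid genes, led by Slc6a9 (2.70 ± 0.53, adjusted p = 0.0112), Slc7a11 (2.43 ± 0.58, adjusted p = 0.0228) and Slc38a2 (0.55 ± 0.14, adjusted p = 0.0285), and the ERAD genes Ube2g2 (0.32 ± 0.08, adjusted p = 0.0292) and Derl2 (0.35 ± 0.09, adjusted p = 0.0354). Cebpb (0.77 ± 0.17, adjusted p = 0.0195) and Nupr1 (0.93 ± 0.22, adjusted p = 0.0232) were higher, and Creb3l2 (−0.58 ± 0.10, adjusted p = 0.00585) and Atf3 (−0.73 ± 0.21, adjusted p = 0.0450) lower. The direct comparison of tau with amyloid and that of tau with untreated cells share the SAN tau libraries, so their calls are not independent. None of these genes passed against amyloid in APOE3S/S cells or in the amyloid comparisons. The tau response of 7 of the 103 other pathway genes tested (6.8%, against 5.62% of all genes) differed between the title series in APOE3 cells. Of the 7, 5 had a higher and 2 a lower log2 fold change in the SAN series. The higher were led by Slc1a5, a glutamine transporter (0.89 ± 0.13, adjusted p = 0.00109), Mthfd1l (0.89 ± 0.21, adjusted p = 0.0154), Slc6a9 (2.70 ± 0.64, adjusted p = 0.0170) and Eif2ak2 (0.89 ± 0.26, adjusted p = 0.0486), and the lower were Atf3 (−1.11 ± 0.19, adjusted p = 0.0021) and Cebpg (−0.66 ± 0.15, adjusted p = 0.0162). The APOE3S/S responses of Slc1a5 (0.93 ± 0.15, adjusted p = 0.0092) and Mthfd1l (1.25 ± 0.23, adjusted p = 0.0126) differed between the series, which was 1.94% of those tested against 0.949% of all genes.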

How the data were processed

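Messenger RNA of 28 libraries of cultured microglia was read by 3′ tag sequencing, per the labels' protocols. The authors deposited 2 tables of raw counts per gene, one with the tau and one with the amyloid libraries, and 5 untreated libraries stand in both with identical counts. Per the submitters' processing notes the build was GRCm38 (mm10) and DESeq2 1.38.3 was used. Neither labels nor headers name the aligner, the counter or the strand setting, so reads of overlapping antisense genes may not be told apart.

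From 60976 table lines, 6360 without numbers and 189 with repeated symbols were left out, keeping the line with the highest total for each symbol, and 54427 genes remained. CPM is the count per 1e6 counts of the library. Genes were filtered with filterByExpr by group and scaled by TMM, and the test was that of edgeR 4.0.16 in R 4.3.3 (quasi-likelihood test, Benjamini-Hochberg adjustment over all genes tested, 13905 for tau, 13867 for amyloid and 14131 for tau against amyloid, call at an adjusted p under 0.05). Standard errors are the fold change over the root of F. Tau fits held the 22 tau and untreated libraries with a term for the title series (series differences came from a fit of genotype, treatment and series together), and amyloid fits held the 11 SAN libraries without tau, or all 17 for tau against amyloid. Scripts were tested on simulated data. DESeq2 1.42.0, limma-voom (limma 3.58.1), other scaling and filters, and leaving out libraries were the alternatives.

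The 35 members, the other pathway lists and the marker lists were chosen with earlier results of these data known, so no list is independent evidence. Described by library were Hspa5, Xbp1, Atf4, Atf6, Ern1 and Eif2ak3 whatever their values and the members called in a comparison, and of each list of other pathway genes up to the 3 called genes with the smallest adjusted p. Ddit3, Psph, Atf3 between tau and amyloid, and the sequence stretches shown were chosen after values were seen. Numbers in the titles were not found to pair the genotypes (13 pairs, correlations of deviations −0.118 to 0.174, 2 of them over 0.1). Deviations from means of 2 or 3 libraries are too noisy to exclude a pairing. Totals of 14.5 to 27.2 M counts set the precision, and genes of a few CPM, such as Chac1, have the widest errors.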

Additional observations from a re-analysis of the deposited data

Results flagged for a closer look

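Of 140 sets of 4 to 6 libraries of a group, by member, 5 held a library far from the others in its group, where about 1 in 20 would by chance, libraries of both title series being pooled. These were APOE3S/S untreated replicate 3 for Hyou1 (120.1 CPM, others 93.1 to 96.3 CPM), APOE3S/S untreated replicate 1 for Calr (553 CPM, others 673 to 674 CPM), APOE3 untreated replicate 1 for Creld2 (34.7 CPM, others 22.3 to 26.8 CPM), APOE3 tau replicate 3 for Atf5 (95.1 CPM, others 68.5 to 75.1 CPM) and APOE3S/S untreated replicate 1 for Ppp1r15a (14.1 CPM, others 16.4 to 16.6 CPM).

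The tau response differed between the title series, SAN minus second, by a test of that difference. In APOE3 cells the differences in log2 fold change were 2.12 for Phgdh, 1.69 for Slc7a5, 0.75 for Calr, 0.53 for Hyou1 and −1.27 for Psat1. In APOE3S/S cells the difference was 0.64 for Hyou1. The series share no library, and what sets them apart cannot be told from the labels.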

How the results depend on the processing

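Of 27 member values called, recomputed 470 times under the alternatives, 320 kept their call, 150 kept their direction only and 0 reversed. The 11 members called with tau in APOE3 cells became 1 in the second title series alone and 1 without a term for the series. The 1 called in APOE3S/S cells became 7 with no filter on low counts, 2 with DESeq2, 3 in the SAN series alone, 0 in the second series alone, 0 without the series term, 0 with only the compared groups in the fit, and 4 without APOE3S/S untreated replicates 2 and 4, a step chosen after seeing the data. With no filter, 1 member was called between untreated genotypes and 1 for the difference between tau responses. The 1 member with a series difference in APOE3S/S cells became 7 with no filter and 6 with DESeq2.

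For amyloid, where 0 were called, no filter gave 4 in APOE3 cells, 3 in APOE3S/S cells and 5 between genotypes. Only the compared groups gave 3 in APOE3 cells and 1 between genotypes, and leaving out APOE3S/S untreated replicate 2 and amyloid replicate 3 gave 3 in APOE3 and 1 in APOE3S/S cells. For tau against amyloid in APOE3 cells, the 9 calls became 15 with no filter and 24 with only the compared groups. The cause of these moves was not tested. For libraries left out and settings changed, here and above, shares of all genes called are given only for each title series alone. In the other settings a move of the members is not told apart from one of all genes.

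With each library left out in turn, counts ran from 4 to 11 (tau, APOE3), 0 to 2 (tau, APOE3S/S), 2 to 6 and 0 to 10 (series difference, APOE3 and APOE3S/S), 0 to 2 (amyloid, APOE3S/S), 0 to 2 and 0 to 3 (tau against amyloid, APOE3 and APOE3S/S), and 0 to 0 for the other comparisons. A replicate block, the title number as a pair between genotypes, gave 0 members in the 5 genotype comparisons, as without it, and the numbers were not found to pair libraries.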
